A study of Homo sapiens with 6 samples.

Results

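Expression of 9 genes of MHC class I antigen presentation was compared between A431CT cells, the control, and Dsg2KO cells, in which Desmoglein-2 was knocked out. The members were the rows of the deposited count table named HLA-B, HLA-C, B2M, TAP1, TAP2, TAPBP, PSMB8, PSMB9 and NLRC5, and all 9 were found among its 21462 genes. A431 is an established human epidermoid carcinoma line of keratinocyte type. The A431CT cells are labelled wild type, and the Dsg2KO cells carry a CRISPR/Cas9 knockout of DSG2, the gene of a desmosomal cadherin. Control and knockout lines came from the same source. Poly(A) RNA was sequenced from 3 samples of each. Both groups were grown in the same medium, and no interferon or other agent is named for either. The replicates are described as biological. The labels do not say whether the Dsg2KO cells are 1 clone or a pool, so p-values measure the spread between samples of these lines.

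MHC class I molecules display short peptides from inside the cell to CD8 T cells. The proteasome cuts proteins into peptides, the TAP transporter carries them into the endoplasmic reticulum, and the loading complex fits them into a heavy chain paired with beta-2 microglobulin. Keratinocytes express the pathway at rest, and interferon gamma raises it through JAK kinases and IRF1, while the transactivator NLRC5 acts at the SXY module of class I promoters together with RFX, CREB/ATF and NF-Y factors.

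TAP2, a subunit of the peptide transporter, was the 1 member that rose, by 11.8% (95% interval 5.37 to 18.5%). HLA-B, HLA-C, B2M, TAPBP, PSMB8 and NLRC5 had log2 fold changes between -0.08 and 0.05, with 95% intervals that stayed between -0.21 and 0.13, and PSMB9 had one of 0.18 that did not pass the test. TAP1 could not be placed, because its libraries ranged from 0 to 214 counts without regard to group. Outside the members, the proteasome maturation factor POMP fell, as did 6 of 14 subunits of the proteasome core (5 or 6 with 1 library left out). PSMB5, PSMB6 and PSMB7, which inducible subunits replace, were not among them. In the interferon gamma axis 3 of 7 genes rose (1 without Dsg2KO replicate 3). Over all further pathway genes 27.1% passed an adjusted p of 0.05, against 29.6% of all tested genes.

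The libraries held between 12845719 and 16255692 counts, and 12857 genes passed the filter on low counts, all 9 members among them. DSG2 fell from 323 ± 6.08 to 51.9 ± 2.88 CPM (SD, n = 3 each), where CPM are counts relative to library size after TMM scaling. Its log2 fold change was -2.64 (SE 0.05, adjusted p = 1.29e-14 by edgeR's quasi-likelihood test with Benjamini-Hochberg adjustment, as for every adjusted p here). A floor of 3 counts corresponded to between 0.184 and 0.236 CPM, which covers counting error only. Of a list of 8 keratinocyte markers 7 were tested, with a summed level of 10170 to 10870 CPM in A431CT and 10805 to 11177 CPM in Dsg2KO libraries. Most of this sum was EGFR, at a mean of 8451 CPM in A431CT and 9134 CPM in Dsg2KO libraries. Without EGFR the sum was 1980 to 2060 CPM in A431CT and 1794 to 1862 CPM in Dsg2KO libraries. EGFR was 1 of the 2 markers that rose, and 3 fell, among them KRT6A with a log2 fold change of -1.03. KRT14 had at most 2 counts in any library. The 8 leukocyte markers summed to between 1.48 and 2.73 CPM in all libraries and 4 of them had no count in any. The 6 fibroblast markers summed to between 1.73 and 3.69 CPM.

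The promoters of 8 members are in the RefSeq table of GRCh38.p14, as windows of 300 bases from 250 before to 50 after the annotated start. The table gives no entry for NLRC5. Stretches of the HLA-B, HLA-C and B2M promoters are printed because these are the genes whose products form the displayed complex, and their upstream region is where the SXY module lies. They come from chr6:31357211-31357305 and chr6:31272124-31272217, both on the minus strand, and from chr15:44711353-44711492 on the plus strand. Capitals mark every match, on either strand, to TGACG (the core of a CREB/ATF site), to CCAAT (the NF-Y box, ATTGG when read in reverse) and to GAAANNGAAA (an interferon-stimulated response element).
HLA-B: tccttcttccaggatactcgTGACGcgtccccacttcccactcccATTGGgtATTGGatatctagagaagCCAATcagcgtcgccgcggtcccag
HLA-C: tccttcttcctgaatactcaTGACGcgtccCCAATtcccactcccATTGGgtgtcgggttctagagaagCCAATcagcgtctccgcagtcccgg
B2M: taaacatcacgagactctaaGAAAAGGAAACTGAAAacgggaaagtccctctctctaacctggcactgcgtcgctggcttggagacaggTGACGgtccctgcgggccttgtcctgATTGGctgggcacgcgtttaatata

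HLA-B and HLA-C held TGACG at 106 and 105 bases before the start and CCAAT at 56 bases before it in both. Between these, HLA-B had ATTGG at 81 and 74 bases, and HLA-C had CCAAT at 95 and ATTGG at 80 bases. TGACG occurs in 24.6% and CCAAT in 34.6% of all 35116 promoter windows, so a match to either is common. GAAANNGAAA occurs in 3.57% of the windows. Of the 8 members with a window, 5 had it (B2M, TAP1, TAP2, TAPBP and PSMB8). Counted by window, as for the share of 3.57%, it was in 5 of the 10 windows of these 8 members. Matches in B2M overlapped each other, as did those in TAP1 and in TAPBP. Stretches around the matches of the other 4 genes are printed with the match in capitals, since these genes hold the transporter, its loading partner and an inducible subunit. They come from chr6:32853793-32853868, chr6:32838758-32838827, chr6:33314079-33314128 and chr6:32844042-32844081, all on the minus strand.
TAP1: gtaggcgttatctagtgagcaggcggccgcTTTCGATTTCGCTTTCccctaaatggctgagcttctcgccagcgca
TAP2: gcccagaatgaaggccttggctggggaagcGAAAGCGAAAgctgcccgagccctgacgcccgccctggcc
TAPBP: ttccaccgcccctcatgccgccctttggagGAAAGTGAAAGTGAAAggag
PSMB8: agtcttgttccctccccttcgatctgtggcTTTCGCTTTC

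A match describes the letters and is no evidence that a factor binds. The GAAANNGAAA group held TAP2, which rose, and B2M, TAP1, TAPBP and PSMB8, which did not pass the test.

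The heavy chains bind the peptide, and B2M is the invariant light chain that every classical heavy chain needs. HLA-B (ENSG00000234745) lies at chr6:31353872-31367067 and HLA-C (ENSG00000204525) at chr6:31268749-31272130, both on the minus strand, and B2M (ENSG00000166710) at chr15:44711358-44718851 on the plus strand, in GENCODE version 44 on GRCh38. HLA-B was at 553, 573 and 513 CPM in the A431CT libraries and at 537, 548 and 500 CPM in the Dsg2KO libraries. HLA-C was at 658, 645 and 610 CPM in A431CT and at 658, 684 and 633 CPM in Dsg2KO libraries. B2M was the most abundant member, at 987, 980 and 913 CPM in A431CT and 966, 982 and 901 CPM in Dsg2KO libraries. For each of these genes the groups overlapped, and replicate 3 was the lowest library of both groups.

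The log2 fold change of HLA-B was -0.05 (SE 0.04, 95% interval -0.14 to 0.05, adjusted p = 0.458). That of HLA-C was 0.05 (SE 0.04, interval -0.04 to 0.13, adjusted p = 0.406). That of B2M was -0.02 (SE 0.04, interval -0.10 to 0.07, adjusted p = 0.810). In percent, the interval for B2M ran from -6.64 to 4.84%. HLA genes are highly polymorphic and reads were counted against a reference genome, so levels of single HLA genes depend on how well the alleles of A431 align. In the reference transcripts themselves, no stretch of 150 bases of HLA-B or HLA-C occurs in another gene. With the reads of all class I heavy chains summed to 1 row, the log2 fold change was -0.04 (SE 0.03, adjusted p = 0.467).

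The immunoproteasome subunits PSMB8 and PSMB9 replace PSMB5 and PSMB6 of the constitutive proteasome and change which peptides are cut. PSMB8 (ENSG00000204264, chr6:32840717-32844679, minus strand) was at 98.1, 89.0 and 87.0 CPM in A431CT and 96.3, 94.9 and 83.2 CPM in Dsg2KO libraries, which overlap throughout. Its log2 fold change was 0.00 (SE 0.06, interval -0.13 to 0.13, adjusted p = 0.988). PSMB9 (ENSG00000240065, chr6:32844136-32859851, plus strand) was at 108, 105 and 99.4 CPM in A431CT and 130, 128 and 97.4 CPM in Dsg2KO libraries. Replicates 1 and 2 of Dsg2KO lay above every A431CT library and replicate 3 lay below them all. The log2 fold change of PSMB9 was 0.18 (SE 0.08, interval 0.00 to 0.36, adjusted p = 0.121 by edgeR). Leaving out Dsg2KO replicate 3 gave 0.30 (adjusted p = 6.40e-04 by edgeR), while leaving out Dsg2KO replicate 1 gave 0.11 (adjusted p = 0.419) and replicate 2 gave 0.12 (adjusted p = 0.371).

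**Figure D1:**
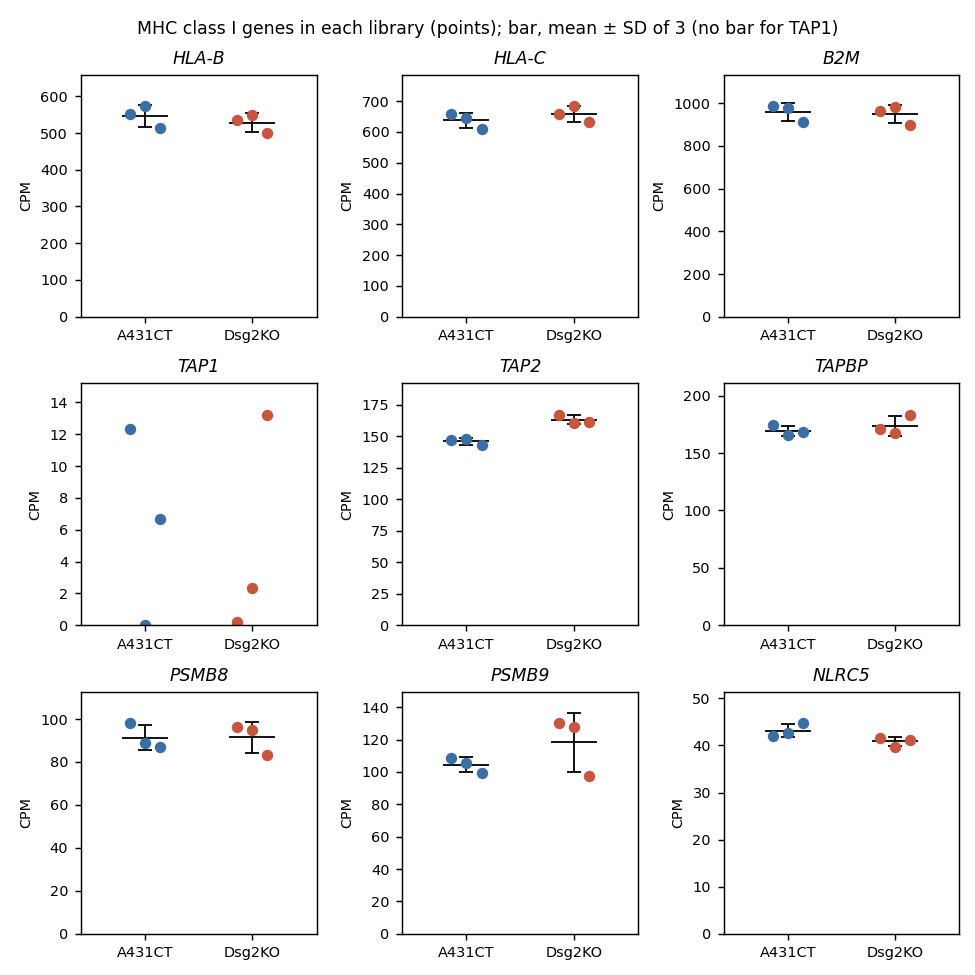
Level of each member in CPM (vertical axes, from 0) in the 3 A431CT and 3 Dsg2KO libraries, with replicates 1 to 3 from left to right in each group and bars for the mean ± SD, left out for TAP1. Only TAP2 has all Dsg2KO points above the A431CT points, only NLRC5 has them all below, and TAP1 runs from 0 to 13.2 CPM.

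TAP1 and TAP2 together form the transporter. TAP2 (ENSG00000204267, chr6:32821833-32838739, minus strand) had 1873, 2003 and 1840 counts in A431CT and 2490, 2629 and 2609 counts in Dsg2KO libraries. This was 147, 148 and 143 CPM in A431CT against 167, 161 and 161 CPM in Dsg2KO, so that the groups did not overlap. The mean rose from 146 ± 2.80 to 163 ± 3.48 CPM (SD, n = 3 each), a log2 fold change of 0.16 (SE 0.04, interval 0.08 to 0.25, adjusted p = 0.00676 by edgeR). DESeq2 gave an adjusted p of 0.00772. The change was under the log2 size of 0.5 that the study required of a differentially expressed gene. The annotation places TAP2 inside a readthrough gene that has no row in the table, and 34.1% of the stretches of 150 bases in its transcript occur in another gene's transcripts.

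TAP1 (ENSG00000168394, chr6:32845209-32853816, minus strand) had 157, 0 and 86 counts in A431CT and 3, 38 and 214 counts in Dsg2KO libraries. The highest and lowest libraries of the groups interleave. Its biological coefficient of variation, the spread between replicates beyond counting error, was 90.9% against a median of 5.08% over all tested genes, and 2 genes had a larger one. The log2 fold change of -0.24 (SE 0.87, interval -2.11 to 1.62, adjusted p = 0.868) sets no useful limit in either direction. Leaving out 1 library at a time moved it between -2.27 and 0.69.

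The whole span of TAP1 lies inside that of PSMB9 on the opposite strand, and the exons of the 2 genes share no base. In RefSeq their starts lie 487 bases apart and point away from each other. The strand setting of the authors' counting is not given in the sources used here. In CPM, Dsg2KO replicate 3 had the most TAP1 and the least PSMB9 of its group, while A431CT replicate 1 had the most of both in its group. Summed, the rows gave 121, 105 and 106 CPM in A431CT and 130, 130 and 111 CPM in Dsg2KO libraries, which overlap. The log2 fold change of the sum was 0.16 (SE 0.07, interval 0.02 to 0.30, adjusted p = 0.0833). Whether reads were exchanged between these rows was not tested.

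**Figure D2:**
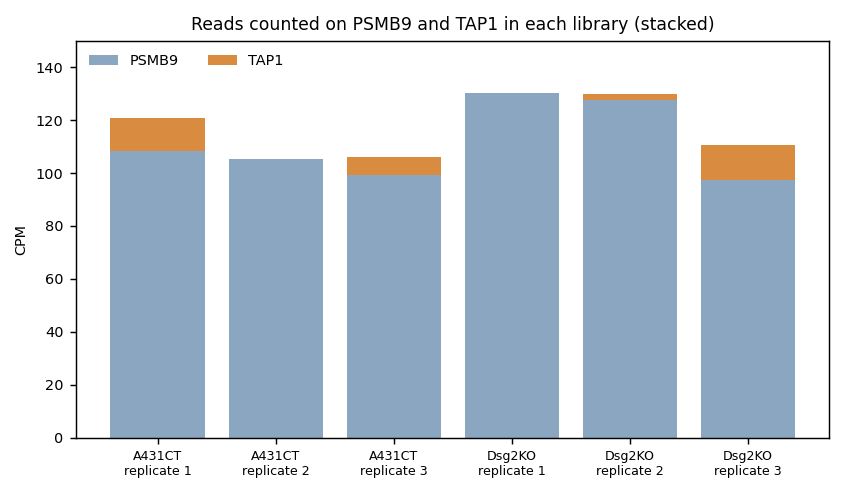
CPM counted on PSMB9 (blue) and TAP1 (orange), stacked, for each of the 6 libraries. TAP1 adds between 0 and 13.2 CPM with no order by group, and the stacks run from 105 to 121 CPM in A431CT and from 111 to 130 CPM in Dsg2KO libraries.

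TAPBP encodes tapasin, which bridges the transporter to the empty heavy chain. It lies at chr6:33299694-33314284 on the minus strand (ENSG00000231925) and was at 175, 166 and 168 CPM in A431CT and 171, 167 and 183 CPM in Dsg2KO libraries. The groups overlapped, with a log2 fold change of 0.04 (SE 0.04, interval -0.06 to 0.13, adjusted p = 0.588). NLRC5 (ENSG00000140853, chr16:56989485-57083531, plus strand) was at 42.0, 42.7 and 44.7 CPM in A431CT and 41.6, 39.8 and 41.2 CPM in Dsg2KO libraries. Every Dsg2KO library lay below every A431CT library, by a narrow margin. The log2 fold change was -0.08 (SE 0.06, interval -0.21 to 0.05, adjusted p = 0.362).

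Of the 9 members, 1 was higher and 0 were lower at an adjusted p under 0.05 by edgeR, and 2 had an unadjusted p under 0.05. Among all tested genes 29.6% passed the adjusted threshold, 14.3% as higher and 15.3% as lower. An unadjusted p under 0.05 was found for 5084 of all 12857 tested genes. No member passed with a log2 fold change of at least 0.5, against 6.03% of all tested genes, and DESeq2 called TAP2 alone at an adjusted p under 0.05 and no member by both thresholds. Libraries of the groups did not overlap for TAP2 (higher) and NLRC5 (lower), where 21.2% of all tested genes had every Dsg2KO library above and 21.4% every one below. The median log2 fold change of the members was 0.00 and that of all tested genes was -0.0048.

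Per kilobase of the canonical transcript, B2M was the highest member in A431CT cells with 1018 ± 43.4 CPM per kb, followed by HLA-C with 413 ± 16.1 and HLA-B with 356 ± 19.9. PSMB9 (103 ± 4.50), PSMB8 (81.3 ± 5.25), TAPBP (49.1 ± 1.30) and TAP2 (25.9 ± 0.50) followed. NLRC5 was at 6.36 ± 0.21 and TAP1 at 2.36 ± 2.30 CPM per kb (SD, n = 3). The libraries of neighbours in this order did not overlap in A431CT cells, and the order of the means was the same in Dsg2KO cells. The place of TAP1 rests on a row of 0 to 214 counts over the 6 libraries. That of HLA-C and HLA-B depends on how well the alleles of A431 align.

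Ratios of counts within a library need no scaling between libraries. PSMB9 to PSMB6, the subunit it replaces, was 1.20, 1.24 and 1.32 in A431CT and 1.54, 1.47 and 1.37 in Dsg2KO libraries, all higher in Dsg2KO. The difference was 0.22 on the log2 scale (exact two-sided permutation test, p = 0.1, which is the smallest that 3 against 3 can give, adjusted to 0.25 over the 5 planned ratios that could be formed). HLA-B to HLA-C was 0.840, 0.889 and 0.841 in A431CT and 0.815, 0.801 and 0.790 in Dsg2KO libraries, a log2 difference of -0.09 (exact permutation p = 0.1, adjusted 0.25). B2M to the sum of both heavy chains stayed between 0.795 and 0.815 in all 6 libraries, with a log2 difference of -0.02 (exact permutation p = 0.2, adjusted 0.333). PSMB8 to PSMB5 differed by -0.06 (exact permutation p = 0.4, adjusted 0.5) and PSMB10 to PSMB7 by 0.07 (exact permutation p = 0.5). Ratios with TAP1 were not formed on a log scale because 1 library had no count.

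**Figure D3:**
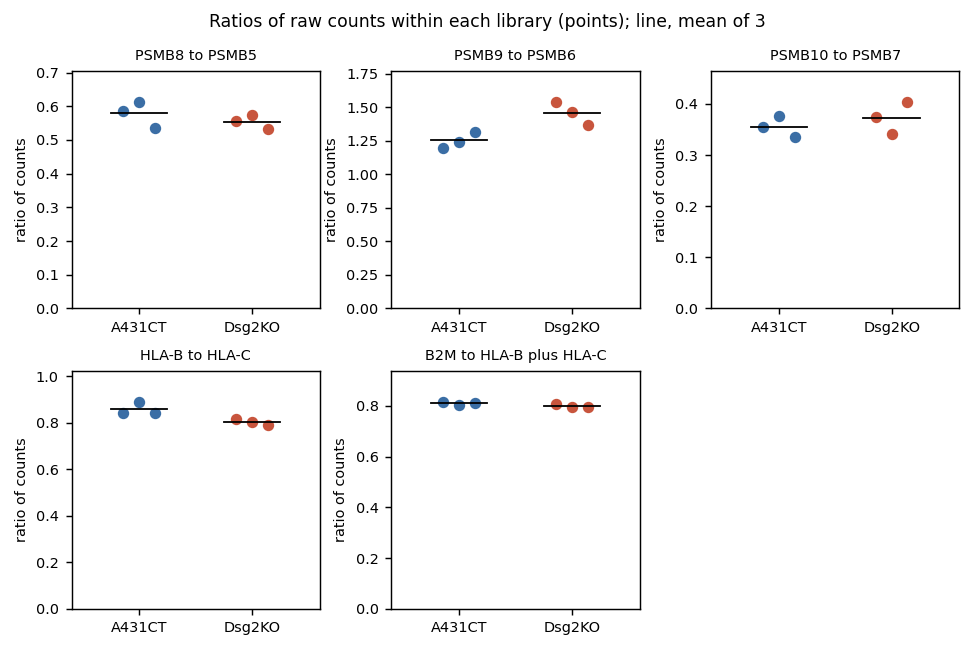
Ratio of raw counts of gene pairs within each library (vertical axes, from 0), with replicates 1 to 3 from left to right and a line at the mean of each group. PSMB9 to PSMB6 is higher and HLA-B to HLA-C is lower in all Dsg2KO libraries, and the others overlap.

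Of 66 further genes of the pathway and its regulators, 59 were tested. At an adjusted p under 0.05, 5 were higher, 11 were lower and 43 did not pass, so that 27.1% passed, against 29.6% of all tested genes. Their median log2 fold change was -0.01.

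Among the other heavy chains examined, HLA-E, a ligand of NK cell receptors, had a log2 fold change of 0.03, HLA-F one of 0.34 (adjusted p = 0.0846), and HLA-G had no count in any library. In peptide loading and trimming, 1 of 8 genes rose and 1 fell, so that 25% passed, against 29.6% of all tested genes. UGGT1, which re-glucosylates misfolded glycoproteins, rose from 164 ± 5.51 to 183 ± 2.21 CPM (log2 0.16, adjusted p = 0.00774). TAPBPL, the peptide editor related to tapasin, fell by 0.21 on the log2 scale (adjusted p = 0.0477), and this call was lost on leaving out any of 5 libraries, with an adjusted p of up to 0.194.

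Of 4 partners of the inducible proteasome 2 fell and none rose, so that 50% passed, against 29.6% of all tested genes. POMP, which is needed for proteasome assembly, fell from 38.1 ± 4.43 to 27.4 ± 1.49 CPM (log2 -0.48, adjusted p = 5.72e-04). PSME1, a subunit of the PA28 activator, fell by 0.23 on the log2 scale (adjusted p = 0.0329), a call lost on leaving out any of 4 libraries, with an adjusted p of up to 0.162. PSMB10, the remaining inducible subunit, was at 29.5 ± 1.67 CPM in A431CT and 29.1 ± 1.75 CPM in Dsg2KO cells. In the 20S core 6 of 14 subunits fell, none rose, and the median log2 fold change was -0.11. Thus 42.9% of the core subunits passed, against 29.6% of all tested genes. PSMB1 fell from 112 ± 9.92 to 75.7 ± 3.14 CPM (log2 -0.57, adjusted p = 6.51e-06). PSMB2 fell by 0.38 on the log2 scale (adjusted p = 1.21e-05), PSMB3 by 0.38 (adjusted p = 5.19e-05) and PSMA7 by 0.45 (adjusted p = 1.25e-04). The call of PSMA4, at -0.11, was lost on leaving out any 1 library. The catalytic subunits that PSMB8, PSMB9 and PSMB10 replace did not pass, with log2 fold changes of 0.06 for PSMB5, -0.05 for PSMB6 and -0.08 for PSMB7.

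Some of these genes lie where their neighbours shifted too. The median log2 fold change of the 50 nearest tested genes (27 for PSMB1, near a chromosome end) was -0.23 around POMP, -0.20 around PSMB1, -0.27 around PSMB2, -0.19 around PSMA7 and -0.09 around PSMB3. It was above 0 around the other genes that fell in these lists. These were PSMA6 (log2 -0.36, neighbours 0.03), PSME1 (neighbours 0.06) and PSMA4 (neighbours 0.0034). The part of the neighbourhood in these results was not tested.

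In the interferon gamma axis 3 of 7 genes examined rose and none fell, so that 42.9% passed, against 29.6% of all tested genes. IFNGR2, a chain of the interferon gamma receptor, rose from 18.0 ± 2.74 to 29.5 ± 0.73 CPM (log2 0.72, adjusted p = 5.33e-05), and the median of its neighbours was 0.37. JAK2, a kinase bound to that receptor, rose from 7.61 ± 1.01 to 11.0 ± 1.04 CPM (log2 0.53, adjusted p = 0.0103, 0.0513 without A431CT replicate 1 and 0.0502 without Dsg2KO replicate 3). IRF1 rose from 100 ± 4.51 to 111 ± 3.34 CPM (log2 0.14, adjusted p = 0.0360, lost on leaving out any of 4 libraries, up to 0.137). The median of the neighbours was -0.0040 for JAK2 and 0.0097 for IRF1.

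Of the 8 factors of the SXY module 2 fell and none rose, so that 25% passed, against 29.6% of all tested genes. NFYC, an NF-Y subunit, fell by 0.27 on the log2 scale (adjusted p = 0.00521, neighbours -0.30), and RFXAP, an RFX subunit, fell by 0.31 (adjusted p = 0.0471, lost on leaving out any of 5 libraries, up to 0.134, neighbours -0.24). Among 7 tested ligands of the NK receptor NKG2D, MICB rose by 0.17 on the log2 scale (adjusted p = 0.0371), a call lost on leaving out any 1 library. No other ligand passed, so that 14.3% passed, against 29.6% of all tested genes. Of the class I-like partners of B2M 2 were tested and neither passed, against 29.6% of all tested genes. Of 7 tested class II genes none passed by edgeR and 3 had an unadjusted p under 0.05, as did 5084 of all 12857 tested genes. The median log2 fold change of the 7 class II genes was 0.39, mostly on low counts. HLA-DRB1 was at 2.38 ± 0.60 CPM in A431CT and 3.93 ± 0.99 CPM in Dsg2KO cells (adjusted p = 0.0528). CD74 was at 126 ± 16.6 CPM in A431CT and 116 ± 5.44 CPM in Dsg2KO cells. It was the 1 class II gene below 0, with a log2 fold change of -0.12 (adjusted p = 0.227, 0.00377 without A431CT replicate 3).

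**Figure D4:**
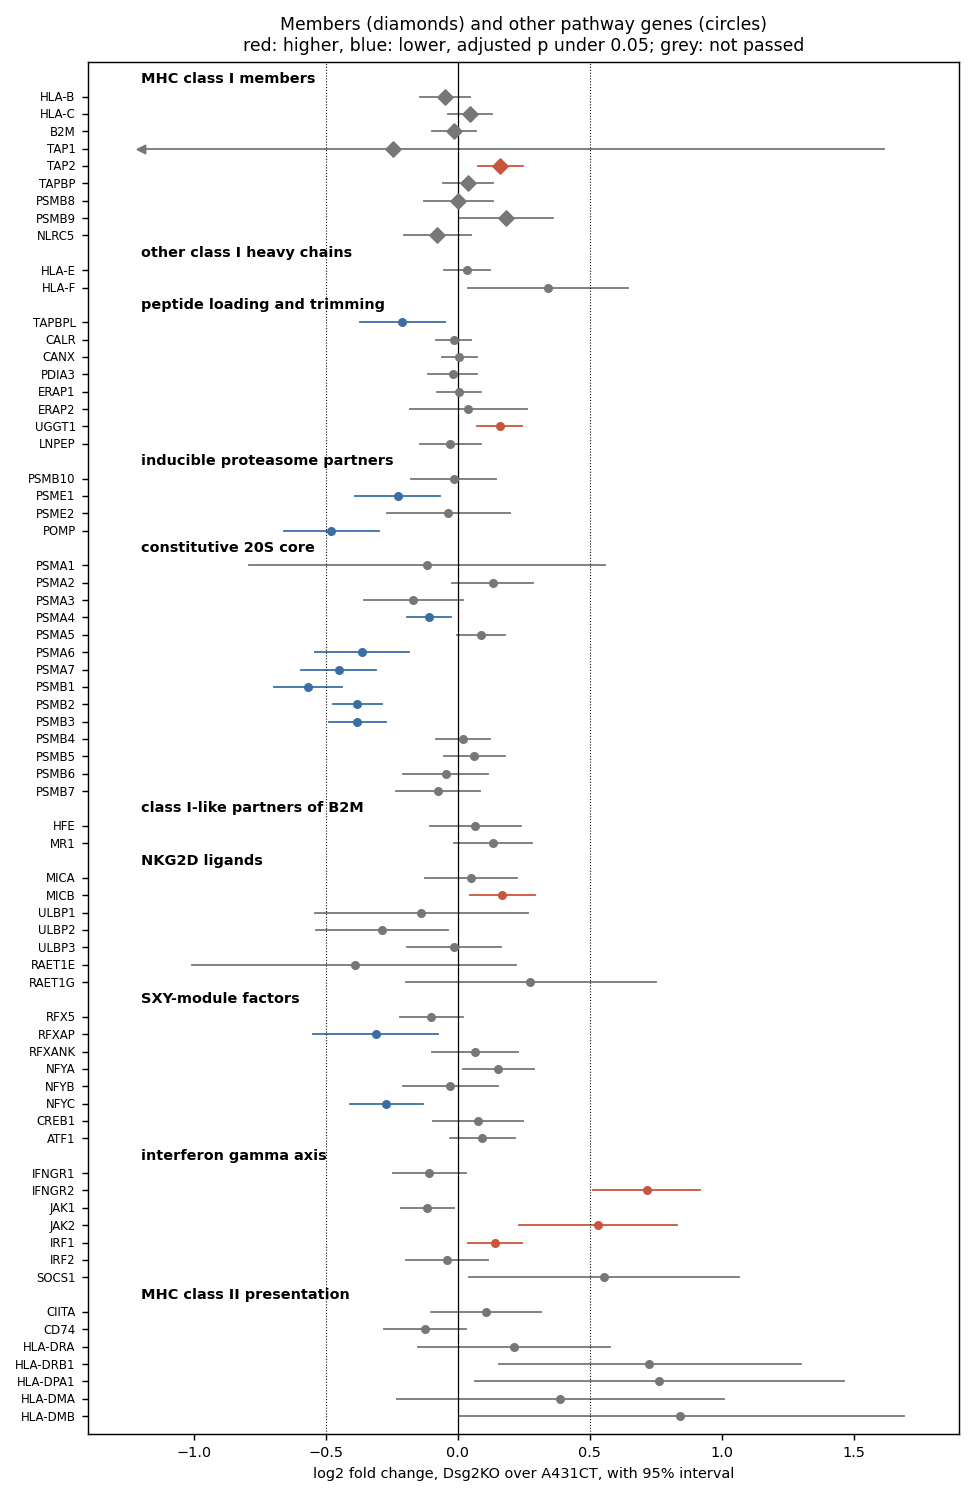
Log2 fold change of Dsg2KO over A431CT (horizontal axis) with 95% intervals for the members (diamonds) and the other tested pathway genes (circles), red where higher and blue where lower at an adjusted p under 0.05, with dotted lines at a size of 0.5. TAP2 is the 1 coloured member, the lower interval of TAP1 runs past the axis to -2.11, and 6 of the 11 blue genes are in the 20S core.

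Of the members, 7 lie in the MHC region of chromosome 6, where 102 genes whose lowest coordinate is between base 28903002 and 33453970 were tested. Among all tested genes 14.3% were higher and 15.3% lower at an adjusted p under 0.05. For the 86 that are neither members nor pathway genes the log2 fold changes centred on -0.01, and 8 of them were higher and 6 lower. Of these IER3 (log2 0.39, adjusted p = 1.36e-04), PPP1R18 (0.19) and DDX39B (0.21) were higher with the smallest p-values, and TUBB (-0.15, adjusted p = 8.25e-05), NRM (-0.22) and MSH5-SAPCD1 (-0.68) were lower.

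**Figure D5:**
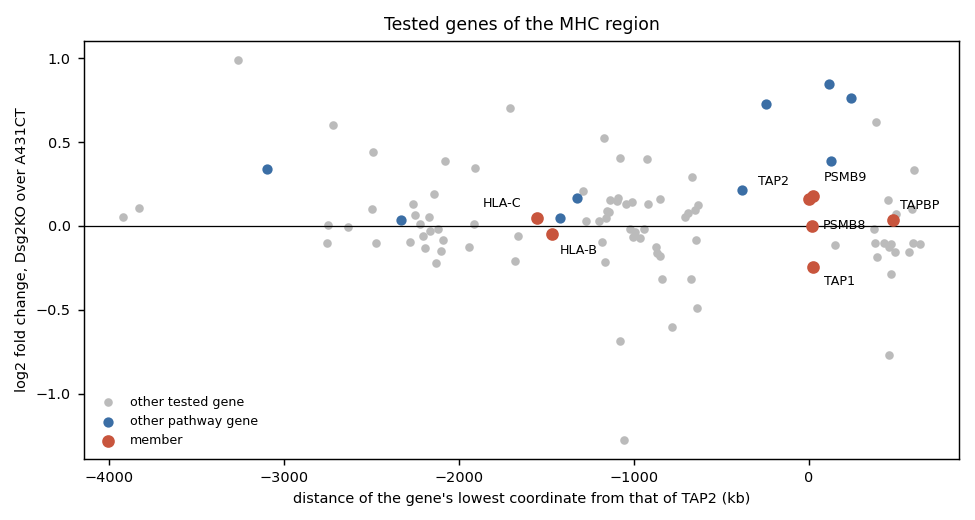
Log2 fold change of Dsg2KO over A431CT (vertical axis) for 102 tested genes of the MHC region by the distance of their lowest coordinate from that of TAP2 in kb (horizontal axis). The 7 members (red) lie between -0.24 (TAP1) and 0.18 (PSMB9), with other pathway genes in blue and all others in grey.

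The genes whose levels lay closest to the median profile of the members over the 6 libraries were AKAP17A, TRIB3, DNM2, MKNK2 and PRDX3. Their own log2 fold changes lay between -0.0018 and 0.015, with adjusted p of at least 0.830 by edgeR. Likeness was the root mean square difference of log2 CPM, each gene set to its A431CT mean, and ran from 0.00576 for AKAP17A to 0.0174 for PRDX3. The profile itself was lowest in replicate 3 of both groups, at -0.06 in each, and between 0.01 and 0.06 in the other libraries. With a profile this flat, closeness to it marks genes that hardly changed, and shared regulation was not tested.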

How the data were processed

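RNA-seq was available for 3 A431CT and 3 Dsg2KO samples. Trimming of the paired-end reads, alignment to GRCh38 and counting per gene were done by the authors in CLC Genomics Workbench, who deposited raw counts per gene symbol without normalization. The gene annotation and the handling of strand are not given in the sources used here. Totals per library lay between 12845719 and 16255692 counts.

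The counts were analysed with edgeR 4.0.16 in R 4.3.3, using TMM factors, filterByExpr (minimum count 10, minimum total count 15), quasi-likelihood fits on the 6 libraries without covariates, and Benjamini-Hochberg adjustment over all 12857 tested genes. The fit was tested on simulated data. Symbols were placed on GENCODE 44 by name and chromosome, which matched 19478 of 21462. DESeq2 1.42.0, other scalings and filters, a replicate block and leaving out each library were alternatives. Replicates of a group differed by more than counting error. Figures used Python 3.11.15.

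The members and gene lists were chosen with earlier results of these data known. Named genes were the members, DSG2, PSMB5, PSMB6, PSMB7 and PSMB10, up to 4 called genes of smallest p per pathway list, up to 3 per direction among other genes of the MHC region, and the 5 most alike in profile. HLA-E, HLA-F, HLA-G, HLA-DRB1, CD74, PSMA4, PSMA6, EGFR, KRT6A and KRT14 were named after their values were seen. Some genes of the region and lists are not reported here.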

Additional observations from a re-analysis of the deposited data

How the results depend on the processing

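TAP2 kept its direction and an adjusted p under 0.05 in all 13 alternatives with a test, with log2 fold changes between 0.14 and 0.18 and adjusted p between 0.00218 and 0.0400. The number of members past an adjusted p of 0.05 was 1, and it was 2 without a low-count filter, 2 with the replicate block and between 1 and 2 with 1 library left out, where PSMB9 was added without Dsg2KO replicate 3. PSMB9 had an adjusted p of 0.0163 without the filter. With 1 as the log2 minimum, 250 genes passed both thresholds in place of 775. Of the other pathway genes, 16 passed an adjusted p of 0.05, 10 by DESeq2 and between 11 and 14 with 1 library left out.

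Over all tested genes, replicate numbers did not pair the samples (correlations of residuals -0.0027, 0.0135 and 0.0539). The median profile of the members, however, was lowest in replicate 3 of both groups, at -0.06 in each. With the replicate block 769 genes passed both thresholds, and PSMB9 had an adjusted p of 0.0344.

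The sign of B2M turned with total counts only (0.0071). The row of summed heavy chains was at -0.037 where HLA-C was above 0, and that of TAP1 plus PSMB9 at 0.16 where TAP1 was below 0, but most counts of either sum come from the other genes. With 1 library left out, the log2 fold change ran from -0.050 to 0.021 for B2M, from -2.27 to 0.69 for TAP1, from -0.035 to 0.066 for PSMB8 and from -0.0042 to 0.066 for TAPBP. Causes were not tested. Counts of 0 to 214 limit TAP1.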
